A study of Mus musculus with 768 samples.

Results

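The insulin-like growth factor (IGF) system was described here through 9 genes chosen by name: the ligands Igf1 and Igf2, the receptors Igf1r and Igf2r, and the binding proteins Igfbp2, Igfbp3, Igfbp4, Igfbp5 and Igfbp7. All 9 have a row among the 32679 genes of the deposited count table. Their levels are CPM, the read count of a gene scaled to the total of its well, in single cells sorted from the mouse dentate gyrus, where the adult hippocampus makes new neurons. Wells with at least 50000 counts and at least 1000 genes with a count were kept, which left 675 of 768. The cells came from 8 male Nestin:GFP mice, whose green fluorescent protein is driven by regulatory sequence of Nes, a gene of neural stem cells, so the cells were chosen by reporter fluorescence and not by cell type. From an age of 2 months, 4 mice (numbers 2, 4, 6 and 8) received a miR-132 mimic and 4 (numbers 1, 3, 5 and 7) a negative control oligonucleotide. Each weekly dose of 150 pmol was given in 3 µl with lipofectamine 2000, for 5 weeks. Mice 1 to 4 are dated 17 April and mice 5 to 8 are dated 19 April, with 2 mice of each treatment on each date, and 94 cells were sorted from each. The series text speaks of Alzheimer's disease and of AD dentate gyrus, but the sample labels list no allele other than the reporter, in any group.

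IGF-1 and IGF-2 are secreted peptides related to insulin. Both act mainly through the IGF-1 receptor, a tyrosine kinase, whereas the IGF-2 receptor, also known as the cation-independent mannose 6-phosphate receptor, takes IGF-2 up for breakdown in lysosomes. Binding proteins hold the ligands outside the cell, lengthen their life there and either limit or favour their access to the receptor, and proteases cut the binding proteins and free the ligand. IGFBP7 is a distant relative that binds IGFs only weakly and is known as a protein of the vessel wall. In the adult brain IGF-2 is known to come largely from the meninges, vessels and choroid plexus, and IGF signalling is known to act on hippocampal neural stem cells.

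Cells were grouped by clustering in which none of these genes, nor any of a wider IGF list, took part, and clusters were named from marker lists. The lists of radial glia-like stem cells, granule neurons, microglia, ependymal or choroid cells and red blood cells could not name a cluster. Of the kept wells, 43.4% were oligodendrocyte-like and 15.6% endothelial-like. The other classes were 94 astrocyte-like, 71 pericyte-like, 37 neuroblast-like, 16 fibroblast-like, 15 oligodendrocyte precursor-like and 9 smooth muscle-like wells. A further 23 wells stayed unnamed, 16 of which held more than 6000 genes, and 12 wells with more markers of another class than of their own were set aside. Values over all kept wells include all of these. The 16 wells were 2 from each mouse, and each mouse had 96 wells for 94 sorted cells. Whether they hold single cells was not tested. A mouse had 75 to 92 kept wells, and the median well held 646537 counts from 2741 genes. At least 50% of wells reached 50 CPM for 100% of the oligodendrocyte and pericyte markers in their own class, for 88.9% of the astrocyte and endothelial markers, and for 66.7% of the neuroblast markers. The label of the sort is a neural stem cell reporter, yet most kept wells were oligodendrocyte-like or vascular, and in the astrocyte-like class none of the radial glia-like stem cell markers reached that level in at least 50% of wells. The fibroblast-like class had 85.7% of its own markers at that level but also 25% of the pericyte and 22.2% of the astrocyte markers. The labels map wells to mice in 2 ways that agree on the treatment of 50% of the 768 wells. The map in the sample descriptions was used, and mimic minus control differences by the other map are given as well.

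The oligonucleotide given to the mimic mice is named for miR-132, so its mature sequence and its possible pairing with the 9 genes are shown first, with the seed (bases 2 to 8) in capitals. The sequence is RefSeq's, on the plus strand of GRCm38.p6 at chr11:75173723-75173744, and the chemistry and exact sequence of the injected mimic were not given in the sources used here.
mmu-miR-132-3p: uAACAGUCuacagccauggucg
A search of the 3′ untranslated regions in the annotation for the 7 letters GACTGTT, which pair with that seed, found 2 matches in Igf1r and 1 in Igfbp5, and none in the other members. The 3 matches are shown since these members could pair with the mimic, and each is printed 5′ to 3′ in gene sense with the match in capitals.
Igf1r, 4469 bases after the stop codon: gagatataaaaGACTGTTcaaggttgctc
Igf1r, 4519 bases after the stop codon: ttatgactcggGACTGTTcaacggtagga
Igfbp5, 1901 bases after the stop codon: cggatcttcacGACTGTTgtcatttgcca
None of the 3 is followed by the A that would make the 8-letter match GACTGTTA. The 7-letter match stood in 11.1% of 21153 genes with a 3′ untranslated region and the 8-letter match in 2.45%, so a match is common and describes only the letters.

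In the GRCm38 annotation, Igf1 lies at chr10:87858265-87937042 and Igf2 at chr7:142650766-142666816, on the plus and minus strands. Igf1r lies at chr7:67952827-68233668 on the plus strand and Igf2r at chr17:12682406-12769664 on the minus strand. Igfbp3 (chr11:7206086-7213923, minus) and Igfbp4 (chr11:99041244-99054392, plus) are far apart on the same chromosome, and Igfbp7 lies at chr5:77349240-77408041 on the minus strand. Igfbp2 (chr1:72824503-72852474, plus) and Igfbp5 (chr1:72857932-72874884, minus) are neighbours that converge with 5457 bases between their ends. Smart-seq2 libraries carry no strand, so reads cannot be told apart where genes on opposite strands overlap. This holds for Igf1 and Igf1os, Igf2 and Igf2os, Igf2r and Airn, and Igfbp7 with Gm34648 and Polr2b. Gm49394 and Mir483 overlap Igf2 on its own strand, where their reads cannot be told apart either.
The 100 bases before the start are printed for 2 pairs of binding protein genes whose members met in the same class: the neighbours Igfbp2 and Igfbp5, both read in astrocyte-like wells, and Igfbp3 and Igfbp4, both read in oligodendrocyte precursor-like wells. Sequences are RefSeq's on GRCm38.p6, in gene sense, with the TATA box letters TATAAA and the GC box letters GGGCGG (either strand) in capitals.
Igfbp2, chr1:72824380-72824479, plus strand: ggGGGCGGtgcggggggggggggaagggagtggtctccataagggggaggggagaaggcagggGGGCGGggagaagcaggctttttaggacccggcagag
Igfbp5, chr1:72874866-72874965, minus strand: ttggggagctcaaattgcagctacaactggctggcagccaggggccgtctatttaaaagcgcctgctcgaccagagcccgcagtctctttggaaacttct
Igfbp3, chr11:7213924-7214023, minus strand: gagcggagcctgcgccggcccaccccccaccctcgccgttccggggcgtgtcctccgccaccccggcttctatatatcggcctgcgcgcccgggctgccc
Igfbp4, chr11:99041144-99041243, plus strand: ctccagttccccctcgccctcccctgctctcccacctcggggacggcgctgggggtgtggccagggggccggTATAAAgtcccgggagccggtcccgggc
In this window Igfbp2 held 2 matches to GGGCGG and none to TATAAA, Igfbp4 held 1 match to TATAAA, and Igfbp5 and Igfbp3 held no match to either. A further RefSeq window of Igfbp2, not printed, held neither. Only these exact letters were searched, so other forms of a TATA box were not counted. Of 32851 RefSeq windows of the same length, 5.56% held TATAAA and 24.7% GGGCGG. The neighbours thus share neither of these exact strings, and the pair on the other chromosome does not either.

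Mean levels by class are described first, with no test (plot of all members by class). Igf2 was read mainly in fibroblast-like and pericyte-like wells, Igf1r mainly in endothelial-like wells, and Igfbp7 in the vascular wells as a whole. Igfbp2 was read in fibroblast-like and astrocyte-like wells, Igfbp5 in some of the same, Igfbp4 in fibroblast-like wells, and Igfbp3 in oligodendrocyte precursor-like wells. Oligodendrocyte-like wells, the most numerous class, had little of any member. Per kilobase of exon, the scale on which genes can be compared, Igfbp2 stood highest in fibroblast-like wells at 2025 CPM per kb, above Igf2 at 1376 and Igfbp4 at 252.03. In pericyte-like wells Igfbp7 stood at 1820.05 CPM per kb and Igf2 at 136.5. In endothelial-like wells Igfbp7 stood at 905 CPM per kb and Igf1r, the next member, at 24.3. In astrocyte-like wells the order was Igfbp2 at 199.6, Igfbp5 at 7.79 and Igf1r at 2.75 CPM per kb.

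**Figure D1:**
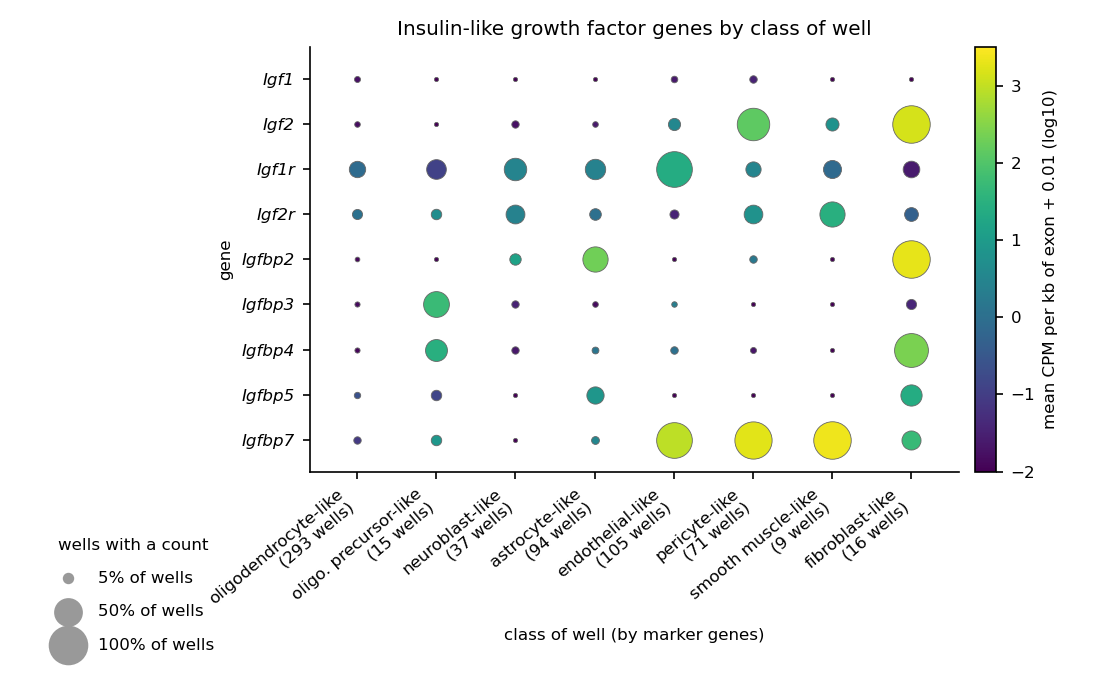
Each of the 9 genes (rows) in each of the 8 marker-named classes (columns): dot area gives the percentage of wells with a count and colour the mean level as log10 of CPM per kb of exon plus 0.01. The large dots are Igf2, Igfbp2 and Igfbp4 in fibroblast-like wells, Igf2 and Igfbp7 in pericyte-like wells, Igfbp7 in smooth muscle-like wells, and Igf1r and Igfbp7 in endothelial-like wells.

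Igf1, the ligand best known from blood, was close to the detection limit. It had a count in 8 of 675 wells, the highest at 13.9 CPM, and these were 4 oligodendrocyte-like, 2 endothelial-like and 2 pericyte-like wells. No astrocyte-like, neuroblast-like or fibroblast-like well had a count, which for 94 astrocyte-like wells allows, at 3 wells of the total, a share of up to 3.19% of wells with one. Microglia, a known source of Igf1 in brain, could not form a class here, since their marker list was not used to name clusters. Too few wells had a count for Igf1 to be tested.
Igf2, the growth factor of the fetus that stays on in brain coverings and vessels, had a count in every fibroblast-like well, 16 of 16, and 67.3% of its CPM summed over all kept wells came from those wells. The wells lay between 564 and 16732 CPM with a median of 6468 CPM. Pericyte-like wells followed, with a count in 53 of 71 wells (74.6%, 95% interval 62.9 to 84.2%). Their level per mouse ran from 193.7 to 2089.7 CPM over mice with a median of 659 CPM, so mice differed widely within the class. Control mice 1, 3, 5 and 7 stood at 249.97, 2089.7, 368.5 and 949 CPM and mimic mice 2, 4, 6 and 8 at 1083, 193.7, 242.8 and 1055 CPM, control mouse 3 being the highest of all. In the other large classes, 10 endothelial-like, 1 of 94 astrocyte-like and 3 oligodendrocyte-like wells had a count.
The 36049 counts of Igf2 in the pericyte-like sums stood against 7 in oligodendrocyte-like, 2 in astrocyte-like and 1114 in endothelial-like sums. By edgeR's quasi-likelihood test with mouse as a block and Benjamini-Hochberg adjustment over 9918 genes, Igf2 was lower in endothelial-like than in pericyte-like cells (log2 fold -6.33 ± 1.5 (SE), adjusted p = 0.00398), a call lost with sums of at least 10 wells (adjusted p = 0.0943); the summed counts, scaled to the totals of the sums, gave a ratio of 43.8 (95% counting interval 41.3 to 46.6). It was lower in oligodendrocyte-like than in pericyte-like cells (log2 fold -14.52 ± 1.73 (SE), adjusted p = 3.17e-07) and than in endothelial-like cells (log2 fold -8.19 ± 1.49 (SE), adjusted p = 0.000128). Against astrocyte-like cells, whose sums held 2 counts, the pericyte-like level was 21442-fold (95% counting interval 5935 to 177059) and the endothelial-like level 489-fold (95% counting interval 135.05 to 4043), with adjusted p = 1.52e-06 and 0.00184 in the same fit. Astrocyte-like and oligodendrocyte-like cells, at 2 and 7 counts, did not pass the test (adjusted p = 0.964). The counting intervals treat pooled reads as independent and leave out the spread between wells and mice, so they are too narrow.
Pericyte markers stood beside the Igf2 counts outside pericytes. In the 10 endothelial-like wells with an Igf2 count, the 8 pericyte markers summed to a median of 1046 CPM (lowest 0, highest 8335), against a median of 0 in the 95 wells without one (highest 5927). All 10 lacked counts of most fibroblast markers, whose sum reached 3.17 CPM at most. In pericyte-like wells the 7 fibroblast markers summed to a median of 367.8 CPM in the 53 wells with Igf2 and of 0.873 CPM in the 18 without. Whether these markers have a part in the endothelial-like or pericyte-like Igf2 level was not tested.

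Igf1r, the receptor that carries the signal of both ligands, was read in 95 wells (90.5%, 95% interval 83.2 to 95.3%) of the endothelial-like class, which held 74.1% of its summed CPM. Per mouse its endothelial-like level ran from 261.3 to 702 CPM over mice with a median of 339.3 CPM. It ran from 0 to 250.1 CPM over mice with a median of 2.41 CPM in pericyte-like cells, from 0 to 173.8 CPM over mice with a median of 62.6 CPM in astrocyte-like cells and from 6.26 to 17.7 CPM over mice with a median of 14.3 CPM in oligodendrocyte-like cells. The lowest endothelial-like mouse lay above the highest mouse of each of the other 3 classes, and those 3 overlapped. In pericyte-like wells 11 of 71 had a count and 1 mouse, mimic mouse 2, stood at 250.1 CPM while 3 mice stood under 1 CPM. Neuroblast-like wells, with 2 to 9 wells a mouse, had a count in 13 of 37 wells (35.1%, 95% interval 20.2 to 52.5%) at a mean of 50.5 CPM.
In the test across classes, only oligodendrocyte-like against endothelial-like cells passed for Igf1r (log2 fold -4.59 ± 1.43 (SE), adjusted p = 0.0187, edgeR quasi-likelihood test, Benjamini-Hochberg). Its lower level in astrocyte-like than in endothelial-like cells (log2 fold -2.89 ± 1.36) and its higher level in endothelial-like than in pericyte-like cells (log2 fold 3.85 ± 1.56) did not pass, at adjusted p = 0.151 and 0.122. The first passed with wells assigned by sample titles and with sums of at least 10 wells, and the second with sample titles, by DESeq2 and with no low-count filter. The shares of wells depend on depth: after each well was thinned to 50000 counts, Igf1r was read in 78.1% of endothelial-like, 19.1% of astrocyte-like and 11.6% of oligodendrocyte-like wells, from 90.5, 28.7 and 18.1%. The endothelial markers summed to a median of 0 CPM in the 27 astrocyte-like wells with Igf1r (highest 418) and in the 67 without (highest 36.8). In pericyte-like wells their median was 3.98 CPM in the 11 with Igf1r (highest 1306) and 0 in the 60 without (highest 1456), and their part in these levels was not tested.
Igf2r, the clearance receptor, was sparse and uneven. Pericyte-like wells had a count in 17 of 71 wells (23.9%, 95% interval 14.6 to 35.5%) and smooth muscle-like wells in 4 of 9, with mean levels of 59.8 and 267.7 CPM. Neuroblast-like wells had a count in 9 of 37, oligodendrocyte-like in 18, astrocyte-like in 8 of 94 and endothelial-like in 5. By mouse, the pericyte-like level was 38.4, 23.1, 160.97 and 78.7 CPM in control mice and 0, 0, 28.6 and 78.3 CPM in mimic mice, and the endothelial-like level did not exceed 3.31 CPM in any of 7 mice. Igf2r was lower in endothelial-like than in pericyte-like cells (log2 fold -7.39 ± 2.38 (SE), adjusted p = 0.0383, edgeR quasi-likelihood test, Benjamini-Hochberg), where the sums held 7 and 2467 counts. The ratio of these sums, scaled to their totals, was 478 (95% counting interval 231.4 to 1189). That call was lost without any one of control mice 5 and 7 and mimic mice 2, 4, 6 and 8 (adjusted p 0.0548 to 0.0943), with no low-count filter and with sums of at least 10 wells. The other 5 contrasts did not pass, the nearest being oligodendrocyte-like over endothelial-like cells at adjusted p = 0.0658, which passed by DESeq2 and with sample titles. In pericyte-like wells the mean levels of Igf1r and Igf2r were 3.22 and 6.42 CPM per kb of exon, and in endothelial-like wells 24.3 and 0.026; the difference between the receptors was not tested. Over the 31 class and mouse sums their log2(CPM + 1) had a Pearson r of -0.563, a description across sums that share mice and classes.

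**Figure D2:**
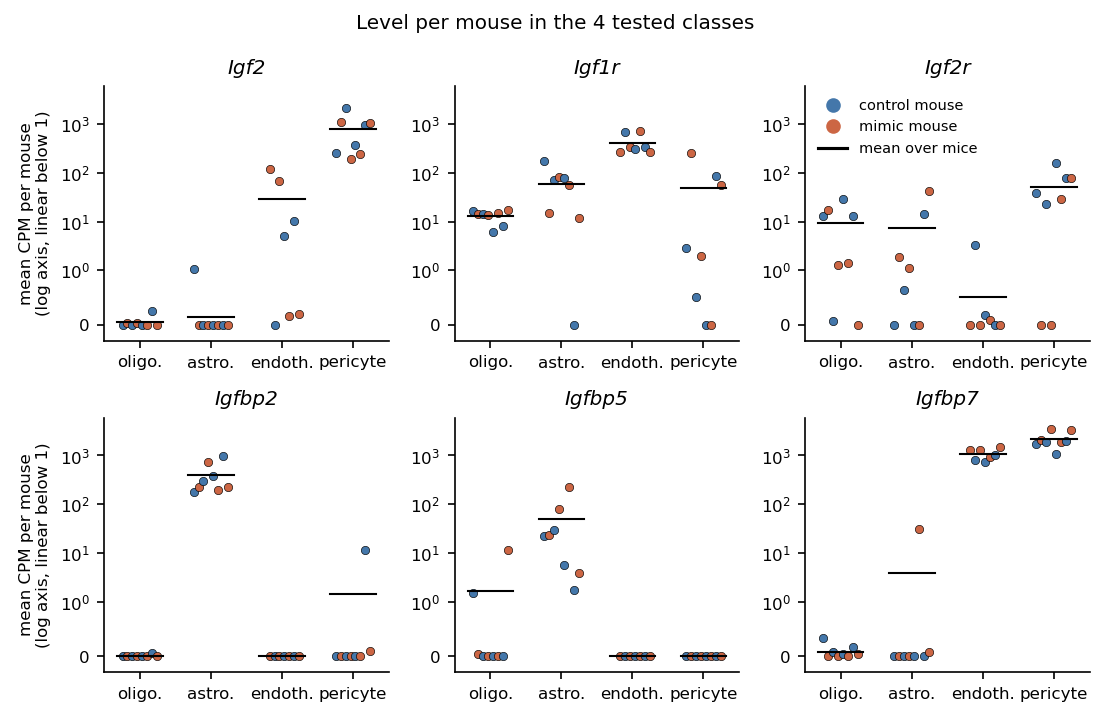
Mean CPM per mouse in the 4 classes with enough wells for a test, for Igf2, Igf1r, Igf2r, Igfbp2, Igfbp5 and Igfbp7, on an axis that is linear below 1 CPM and logarithmic above; points are mice with at least 5 wells of the class, control in blue and mimic in orange, and lines are means over mice. Igf1r points of the endothelial-like class lie between 261.3 and 702 CPM, above every point of the other classes, whereas Igfbp7 is high in both the endothelial-like and pericyte-like classes.

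Of the binding proteins, Igfbp2, a major one of the brain and its coverings, was read in all 16 fibroblast-like wells (median 3365 CPM, lowest 1039) and in 42 of 94 wells (44.7%, 95% interval 34.4 to 55.3%) of the astrocyte-like class. Per mouse the astrocyte-like level was 177.9, 301.5, 386 and 982 CPM in control mice and 231.03, 747, 191.97 and 229.3 CPM in mimic mice, so all 8 mice had it. In endothelial-like wells it had 0 counts, which allows, at 3 wells of the total, up to 2.86% of wells with one, and 1 oligodendrocyte-like and 2 of 71 pericyte-like wells had a count. Astrocyte-like cells were at least 7637-fold higher than endothelial-like cells, with a floor of 3 counts over the endothelial-like sums (adjusted p = 2.52e-08, edgeR quasi-likelihood test, Benjamini-Hochberg). They were higher than pericyte-like cells (log2 fold 11.65 ± 1.06 (SE), adjusted p = 5.11e-08), which held 77 counts, 99.4% of their CPM from 1 well. The ratio of the summed counts, scaled to the totals, was 219.6 (95% counting interval 175.6 to 278.4), far below the fitted fold. They were also higher than oligodendrocyte-like cells, which held 1 count (ratio 78357-fold (95% counting interval 14062 to 3095080), adjusted p = 5.65e-09). Igfbp2 also passed as lower in endothelial-like and in oligodendrocyte-like than in pericyte-like cells (adjusted p = 0.0166 and 0.00867). Those calls rest on the 2 of 71 pericyte-like wells with a count, whose fibroblast markers summed to 1049 and 1241 CPM against a median of 69.4 CPM in the 69 without, and both were lost when control mouse 7 was left out (adjusted p = 0.511 and 0.211), with sample titles, with no low-count filter and when the IGF genes took part in the clustering.
Igfbp5, the neighbour of Igfbp2 and a binding protein known from bone, muscle and brain, was read in 19 of 94 wells (20.2%, 95% interval 12.6 to 29.8%) of the astrocyte-like class and in 5 of 16 fibroblast-like wells, and had 0 counts in endothelial-like and pericyte-like wells. Its astrocyte-like level was 22.7, 30.1, 5.64 and 1.72 CPM in control mice 1, 3, 5 and 7 and 23.4, 81.3, 222.8 and 3.92 CPM in mimic mice 2, 4, 6 and 8, mimic mouse 6 standing far above the rest. Astrocyte-like cells passed as higher than endothelial-like cells (at least 740.4-fold, adjusted p = 0.00271), pericyte-like cells (at least 546-fold, adjusted p = 0.00164) and oligodendrocyte-like cells, the last with log2 fold -7.70 ± 2.15 (SE), adjusted p = 0.0215 as coded for oligodendrocyte-like against astrocyte-like cells. The summed counts of that contrast, scaled to the totals, gave a smaller ratio of 24.2 (95% counting interval 21.5 to 27.3), and 1 well gave 80.3% of the oligodendrocyte-like CPM. The same edgeR test and a floor of 3 counts over the class were used. All 3 calls were lost with sums of at least 10 wells, and the last also without any one of control mice 3, 5 and 7 and mimic mice 2 and 4 (adjusted p 0.0504 to 0.0624).
The neighbours met in the class but seldom in a well: of the 94 astrocyte-like wells, 42 had Igfbp2, 19 had Igfbp5 and 2 had both, that is 4.76% of the first and 10.5% of the second, while 35 had neither. Astrocyte-like wells formed 2 clusters, number 6 with 36 wells and number 8 with 58. Igfbp2 was read in 11 of 36 wells (30.6%) of cluster 6 and 31 of 58 wells (53.4%) of cluster 8, and Igfbp5 in 10 of 36 wells (27.8%) and 9 of 58 wells (15.5%). The median count of genes per well was 2180.5 in cluster 6 and 2848 in cluster 8, and the clusters had too few wells per mouse for a test.

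**Figure D3:**
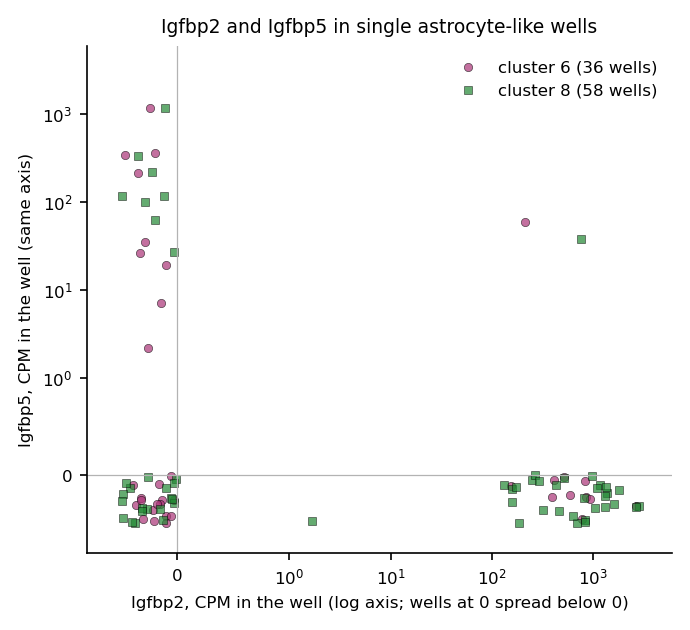
Igfbp2 against Igfbp5 in each of the 94 astrocyte-like wells, in CPM on axes linear below 1 and logarithmic above, with the wells of cluster 6 (36) and cluster 8 (58) in different colours. Points lie along the axes, and 2 wells have both genes.

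Igfbp7, the vessel-wall member, was read in 70 of 71 wells (98.6%, 95% interval 92.4 to 99.96%) of the pericyte-like class, 95 wells (90.5%, 95% interval 83.2 to 95.3%) of the endothelial-like class and 9 of 9 smooth muscle-like wells. Its level per mouse ran from 1059.98 to 3531 CPM over mice with a median of 1941 CPM in pericyte-like cells and from 733 to 1480.3 CPM over mice with a median of 1041 CPM in endothelial-like cells. The classes overlapped over mice, and their difference did not pass the test (log2 fold -0.66 ± 0.94 (SE), adjusted p = 0.796). Oligodendrocyte-like cells were lower than endothelial-like (log2 fold -13.94 ± 1.48 (SE), adjusted p = 5.54e-08) and pericyte-like cells (log2 fold -14.61 ± 1.5 (SE), adjusted p = 2.45e-08), and so were astrocyte-like cells (log2 fold -12.44 ± 1.57 (SE), adjusted p = 1.28e-06 and log2 fold -13.10 ± 1.59 (SE), adjusted p = 6.06e-07), all by edgeR's quasi-likelihood test with Benjamini-Hochberg adjustment. The scaled ratios of summed counts for astrocyte-like cells were smaller, 345.5 (95% counting interval 297.5 to 404) below endothelial-like and 677 (95% counting interval 583 to 791) below pericyte-like cells, and 1 well gave 98.8% of the astrocyte-like CPM. In single wells, Igfbp7 was read in 90.5% of the endothelial-like wells with Igf1r, the same share as in the class as a whole, and in 52 of the 53 pericyte-like wells with Igf2, in a class where 1 well lacked it.
Igfbp3, the main carrier of IGF in blood, and Igfbp4, a binding protein known as an inhibitor of IGF action, had too few counts in the large classes to be tested. Igfbp3 was read in 7 of 15 wells (46.7%, 95% interval 21.3 to 73.4%) of the oligodendrocyte precursor-like class, which held 72.9% of its summed CPM, and 1 endothelial-like well of mimic mouse 2 at 747 CPM held most of the rest. The precursor-like wells with a count lay in mice 1, 6, 7 and 8. Igfbp4 was read in 13 of 16 fibroblast-like wells (mean 1113 CPM, 82.8% of its sum) and in 5 of 15 precursor-like wells at a mean of 128.3 CPM. Of the 15 precursor-like wells 4 had both Igfbp3 and Igfbp4, and 7 had neither.

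Of the 8 classes, the fibroblast-like wells held the highest mean CPM of 4 members, Igf2, Igfbp2, Igfbp4 and Igfbp5, and the first 3, read in most of these wells, are given by mouse. Mouse 2 had 3 such wells, mouse 5 had 4, mouse 6 had 2, mouse 7 had 4 and mouse 8 had 3, and mice 1, 3 and 4 had none. Igf2 stood at 8781 and 5472 CPM in control mice 5 and 7, and at 5937, 9289 and 10863 CPM in mimic mice 2, 6 and 8. Igfbp2 stood at 3409.7 and 4273 CPM in the control mice and at 3392, 4378 and 3398 CPM in the mimic mice. Igfbp4 stood at 2140.5 and 859.5 CPM in the control mice and at 738, 863 and 622 CPM in the mimic mice. All 16 wells had both Igf2 and Igfbp2, and 13 of them Igfbp4 as well. Receptors were low there, Igf1r in 3 of 16 wells at 1.41 CPM or less and Igf2r in 2 of 16. No test was run on a class with so few wells a mouse.

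**Figure D4:**
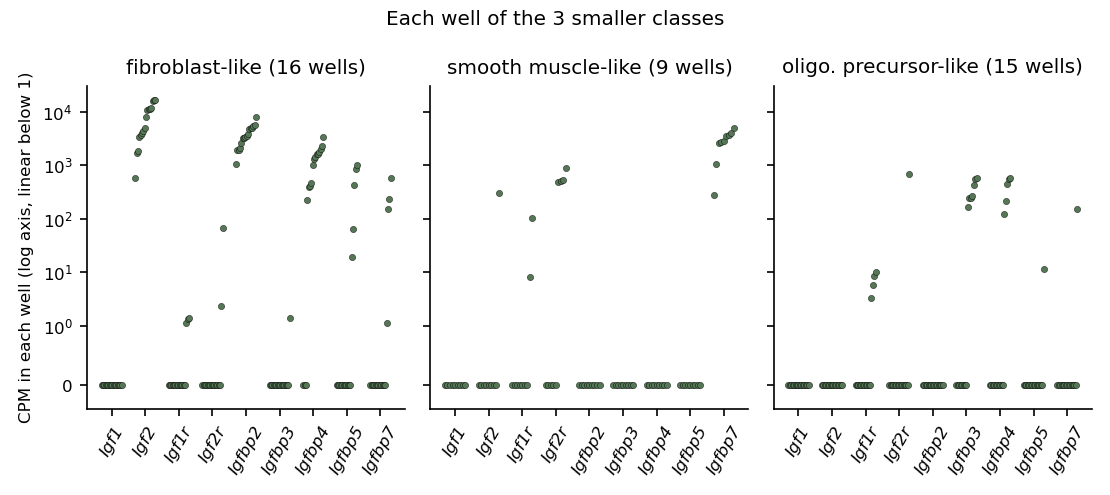
Each well of the fibroblast-like (16), smooth muscle-like (9) and oligodendrocyte precursor-like (15) classes, for the members, in CPM on an axis linear below 1 and logarithmic above. Igf2 and Igfbp2 are at 564 CPM or more in every fibroblast-like well, Igfbp7 is at 271.5 CPM or more in every smooth muscle-like well, and Igfbp3 and Igfbp4 are at 0 in many precursor-like wells.

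Counted together, 6 of the 9 members had enough counts for the test across classes, and Igf1, Igfbp3 and Igfbp4 did not. A member passes the filter on low counts through the class in which it is high, so its count is read only beside the genes as a whole. In astrocyte-like against endothelial-like cells 2 members were higher and 2 lower, where 12.8% of 9918 genes passed as higher and 8.38% as lower. In astrocyte-like against pericyte-like cells 2 were higher and 2 lower, where 14.6% of 9918 genes passed as higher and 5.89% as lower. In endothelial-like against pericyte-like cells 0 were higher and 3 lower, where 7.97% of 9918 genes passed as higher and 4.84% as lower. In oligodendrocyte-like against astrocyte-like cells 0 were higher and 2 lower, where 8.72% of 9918 genes passed as higher and 8.66% as lower. In oligodendrocyte-like against endothelial-like cells 0 were higher and 3 lower, where 13.1% of 9918 genes passed as higher and 8.83% as lower. In oligodendrocyte-like against pericyte-like cells 0 were higher and 3 lower, where 18.1% of 9918 genes passed as higher and 7.62% as lower. The 6 contrasts share classes and mice. The median log2 fold of all genes itself moved with the scaling, for instance from 1.30 to 0.73 for oligodendrocyte-like against pericyte-like cells when TMM factors were left out, and the directions of the members' calls given above were the same under both.

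The genes whose level was most like a member's were found by Pearson correlation of log2(CPM + 1) over the 31 class and mouse sums, among 9918 genes; the sums share mice and classes, so r is only a description. For Igf2 they were Tmem45a (0.948), Ifi203 (0.947) and Vtn (0.943), the last the pericyte marker vitronectin. For Igfbp7 they were Tm4sf1 (0.994), Slc22a8 (0.982) and Ebf1 (0.982), which encode a membrane protein, an organic anion transporter and a transcription factor. For Igfbp2 they were Mro (0.987), Gjb6 (0.985) and Nrn1 (0.985), the second the astrocyte marker connexin 30. For Igfbp5 they were Gm37606 (0.898), Acsbg1 (0.87) and Frmpd1 (0.869). For Igf1r they were Sos1 (0.784), B4galt1 (0.758) and Rps9 (0.746), the first a guanine nucleotide exchange factor that acts below receptor tyrosine kinases, and for Igf2r Hapln3 (0.756), Begain (0.756) and Slc19a1 (0.706). The receptors thus had less like neighbours than Igfbp2 and Igfbp7. By rank correlation the 3 most like genes were others for every member except Igf2r, of whose 3 only Hapln3 came back.

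Of 58 other genes of the pathway, 57 had a row and 35 were tested across classes. In the order of contrasts above, 4, 6, 4, 3, 3 and 6 of the 35 passed as higher and 5, 3, 2, 2, 4 and 3 as lower, and their median log2 fold was -0.16, 0.04, 0.52, 0.20, 0.74 and 0.87 beside 0.18, 0.68, 0.46, 0.57, 0.78 and 1.30 for all genes. Among the receptors, Insr, the insulin receptor, followed Igf1r: it was read in 75 endothelial-like wells and was higher there than in astrocyte-like (log2 fold -1.99 ± 0.60, adjusted p = 0.0155, coded astrocyte-like minus endothelial-like), pericyte-like (log2 fold 2.03 ± 0.63, adjusted p = 0.0301) and oligodendrocyte-like cells (log2 fold -1.88 ± 0.60, adjusted p = 0.0217, coded oligodendrocyte-like minus endothelial-like). Lrp1, an endocytic receptor that also binds IGFBP3, had the opposite place, in 5 endothelial-like wells at 0.0984 CPM, and all 15 of 15 precursor-like wells at 1268 CPM. It was higher in astrocyte-like than in endothelial-like cells (log2 fold 11.76 ± 1.66, adjusted p = 6.15e-06) and lower in endothelial-like than in pericyte-like cells (log2 fold -12.09 ± 1.66, adjusted p = 7.43e-06). It was lower in oligodendrocyte-like than in astrocyte-like (log2 fold -12.18 ± 1.70, adjusted p = 6.5e-06) and pericyte-like cells (log2 fold -12.50 ± 1.71, adjusted p = 2.86e-06), by edgeR's quasi-likelihood test with Benjamini-Hochberg adjustment. Oligodendrocyte-like against endothelial-like cells did not pass for Lrp1.
Other ligands and binding proteins were nearly absent. Ins1 had a count in 2 of 675 wells, Insl3 in 3 of 675, Insl6 in 11 of 675, Insrr in 5 of 675, Igfals in 3 of 675, Igfbp6 in 2 of 675 and Igfbp1 in 0 of 675, and H19, the imprinted neighbour of Igf2, in 0 of 675. The exception was Igfbpl1, an IGFBP-like protein known from new neurons, in 32 of 37 neuroblast-like wells at 629.8 CPM, 91% of its sum. Htra1, a secreted protease known to cut IGFBP5, was read in 88 of 94 astrocyte-like wells at 4213 CPM and was higher there than in endothelial-like (log2 fold 5.87 ± 1.13, adjusted p = 0.000286) and pericyte-like cells (log2 fold 6.79 ± 1.11, adjusted p = 4.38e-05). Below the receptor, the adaptor Grb10 was lower in astrocyte-like and oligodendrocyte-like than in endothelial-like cells, whose sums held 3826 counts against 3 and 1 (adjusted p = 0.000192 and 3.79e-05). The adaptor Irs2 had 0 counts in endothelial-like sums against 11795 in oligodendrocyte-like ones (adjusted p = 0.000232). Socs2, a feedback inhibitor, was higher in endothelial-like than in pericyte-like sums, with 4961 and 0 counts (adjusted p = 0.000374). Sos1, the gene most like Igf1r, was higher in endothelial-like than in pericyte-like cells (log2 fold 7.98 ± 1.56, adjusted p = 0.000593).

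Between mimic and control mice no member passed the test, in all kept wells or within a class. Over all kept wells 5 members were tested by edgeR's quasi-likelihood test with the date in the labels as a covariate, 0 passed, and 0% of 8823 genes passed either way. At an unadjusted p under 0.05 there were 395 genes (4.48%), and DESeq2 called 15, none of them a member. On simulated counts the edgeR test over all kept wells found 22% of genes changed by log2 fold 1, so such changes could be missed. A sum over wells mixes how many wells of a class a mouse had with the level in each, and both can set the values that follow.
Igf1r, which carries 2 seed matches for miR-132, stood at 45.1, 73.9, 56.6 and 93.7 CPM in control mice 1, 3, 5 and 7 and at 54, 76.2, 200.7 and 86.3 CPM in mimic mice 2, 4, 6 and 8. The groups overlapped, mimic mouse 6 being the highest of all, and the mimic mean was not lower (67.3 ± 21.2 CPM in control mice and 104.3 ± 65.7 CPM in mimic mice (SD, n = 4 and 4), exact two-sided permutation p = 0.4). Mouse 6 also had 22 endothelial-like wells against 4 in mouse 1, the class in which Igf1r is high, and its part in the value was not tested. Igfbp7 stood at 238.3, 194.2, 200.4 and 804 CPM in control mice and 287.2, 644, 495 and 913 CPM in mimic mice, control mouse 7 standing among the mimic mice (exact p = 0.286). Endothelial-like wells numbered 4, 6, 12 and 17 in control mice and 8, 13, 22 and 23 in mimic mice, in the same order, and pericyte-like wells 8, 5, 7 and 18, and 6, 5, 9 and 13. The part of these numbers in the Igfbp7 values was not tested.
Igf2r stood at 36.4, 2.37, 36.1 and 29 CPM in control mice and 15.1, 1.32, 8.25 and 18.6 CPM in mimic mice. The 3 highest mice were control mice, and control mouse 3 stood among the mimic mice (26 ± 16.1 CPM in control mice and 10.8 ± 7.65 CPM in mimic mice (SD, n = 4 and 4), exact p = 0.143). Control mouse 3 was the only mouse that made the groups overlap, so leaving it out parts them by construction, with a difference of -23.01 CPM. By sample titles, with every mouse, the difference turned to 2.82 CPM. Igf2 was 275.8 ± 224.6 CPM in control mice and 268.7 ± 197.002 CPM in mimic mice (SD, n = 4 and 4), exact permutation p = 1. Its level followed the fibroblast-like wells: mice 1, 3 and 4, which had none, stood at 29.9, 141.9 and 33.1 CPM, and the other 5 stood at 250.3 CPM or more. Without those wells Igf2 was 108.9 ± 96.1 CPM in control mice and 79 ± 60.4 CPM in mimic mice (SD, n = 4 and 4), and the exact permutation p was 0.686. Igfbp2 was 158.3 ± 149.8 CPM in control mice and 136.7 ± 35.7 CPM in mimic mice (SD, n = 4 and 4), exact p = 0.857. By date its mimic minus control difference was 88.6 CPM on 17 April and -131.6 CPM on 19 April, with 2 mice of each treatment a date. Of the other members, the difference on the 2 dates was 5.64 and 68.4 CPM for Igf1r, -11.2 and -19.1 for Igf2r, 249.5 and 201.6 for Igfbp7, and 68.9 and -83.1 for Igf2. With the wells assigned to mice by sample titles instead of descriptions, the differences of Igf1r, Igf2r, Igfbp2 and Igfbp7 turned sign, to -27.7, 2.82, 13.9 and -82.8 CPM, and that of Igf2 was -82.7 CPM.

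**Figure D5:**
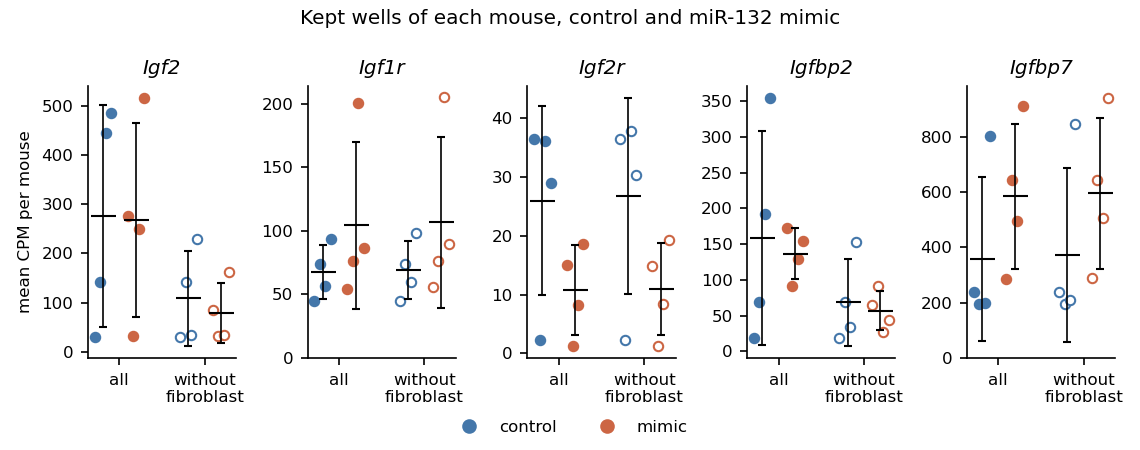
Mean CPM per mouse over all kept wells (filled) and without fibroblast-like wells (open) for Igf2, Igf1r, Igf2r, Igfbp2 and Igfbp7, in 4 control and 4 mimic mice, with the mean and SD of each group. The groups overlap for every gene, and Igf2 and Igfbp2 fall when the 16 fibroblast-like wells are left out.

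Within classes the counts of tested members were 1 in oligodendrocyte-like, 3 in astrocyte-like, 2 in endothelial-like and 4 in pericyte-like cells, and 0 passed in each. Of all genes, 0% of 7389, 0% of 7394, 0% of 5761 and 0% of 5105 passed by edgeR, 2.99%, 1.47%, 1.89% and 0.686% had an unadjusted p under 0.05, and DESeq2 called 3, 25, 30 and 15. Igfbp7 had the smallest exact p among the members in the classes where it is high. In endothelial-like cells it stood at 825, 733 and 1041 CPM in control mice 3, 5 and 7 and at 1291, 1316, 942 and 1480.3 CPM in mimic mice 2, 4, 6 and 8. Mimic mice were higher but for mouse 6, which stood below control mouse 7 (log2 fold 0.68 ± 0.31, adjusted p = 1 by edgeR, exact permutation p = 0.0857). In pericyte-like cells it stood at 1736, 1888, 1059.98 and 1993 CPM in control and 2080.5, 3531, 1859 and 3288 CPM in mimic mice, with mimic mouse 6 again inside the control range (log2 fold 0.58 ± 0.33, adjusted p = 1, exact permutation p = 0.0857). Mouse 6 was the only mouse that made the pericyte-like groups overlap, so leaving it out parts them by construction, with a difference of 1297 CPM. The smallest p that 4 mice against 4, or 3 against 4, can give is 0.0286. By the title map the endothelial-like difference was -7.49 CPM instead of 391 CPM, and the pericyte-like difference was 298.1 CPM instead of 1020.4 CPM.
Igf1r in endothelial-like cells, its main class, was 682, 301.7 and 339.3 CPM in control mice and 272.8, 340.98, 702 and 261.3 CPM in mimic mice. The log2 fold was -0.01 ± 0.48 (SE, adjusted p = 1 by edgeR), and the exact permutation p was 0.6. In oligodendrocyte-like cells it was 11.2 ± 4.91 CPM in control mice and 15.3 ± 1.69 CPM in mimic mice (SD, n = 4 and 4), and the exact permutation p was 0.229. Igfbp5, the other gene with a seed match, was 15 ± 13.6 CPM in control mice and 82.9 ± 98.9 CPM in mimic mice (SD, n = 4 and 4) in astrocyte-like cells, with an exact permutation p of 0.257, and the mimic mean rests on mouse 6. Igfbp2 in astrocyte-like cells was 462 ± 357.1 CPM in control mice and 349.9 ± 265.6 CPM in mimic mice (SD, n = 4 and 4), exact permutation p = 0.543. Igf2 in pericyte-like cells was 914 ± 841 CPM in control mice and 644 ± 492 CPM in mimic mice (SD, n = 4 and 4), exact permutation p = 0.6. Igf2r in pericyte-like cells was 75.3 ± 61.7 CPM in control mice and 26.7 ± 36.9 CPM in mimic mice (SD, n = 4 and 4), exact permutation p = 0.229. By the title map the mimic minus control differences were -77.2 CPM for Igf1r in endothelial-like and -4.29 CPM in oligodendrocyte-like cells. They were, for the astrocyte-like class, 10.4 CPM for Igfbp5 and -36.5 CPM for Igfbp2, and in pericyte-like cells 102.3 CPM for Igf2 and -36.7 CPM for Igf2r. Of the other genes of the pathway, 0 of 32 tested passed over all kept wells and 0 of 27, 28, 27 and 25 within the 4 classes.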

How the data were processed

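The authors deposited raw read counts of each gene in each well, 32679 by 768, from Smart-seq2 libraries without molecular identifiers. The tools named in the submitters' processing notes are STAR, Subread with featureCounts 1.5.1, FastQC and Seurat 2.3.1, on build mm10; settings are not given in the sources used here. Totals per mouse over kept wells were 43889169 to 66897586 counts. Wells were assigned to mice by the well names in the sample descriptions, each of which stands in 4 samples of 1 mouse; the map by sample titles is an alternative that gives the same mouse for 96 wells.
CPM is per well. Counts per 10000, 2000 variable genes without the IGF list, 20 components, 15 neighbours and Leiden resolution 1 gave the clusters (scanpy 1.11.5, Python 3.11.15). No doublet caller was run on these sorted cells. A well was set aside where at least 50% of another class's markers and a larger share of them than of its own reached 50 CPM, a rule added after seeing the data. Class tests used raw counts summed per class and mouse (sums of at least 5 wells, 31 sums), mouse as a block, edgeR 4.0.16 quasi-likelihood test with TMM factors (R 4.3.3) and Benjamini-Hochberg adjustment at 0.05; DESeq2 1.42.0 is an alternative. Mimic was compared with control on sums per mouse with the date in the labels as covariate, and on mean CPM per mouse with exact two-sided permutation tests. Shares carry exact 95% Clopper-Pearson intervals, and a share of 0 the limit of 3 wells of the total, and these cover counting error only. The counting intervals of ratios and the floor of 3 counts treat reads pooled over wells and mice as independent. Without molecular identifiers, reads of 1 transcript in a well are not independent. Those intervals are thus too narrow, and they leave out the spread between wells and mice. Genes were tested that passed filterByExpr and had a count in at least 10% of the wells compared, for class tests in at least 1 of the 4 classes. The 9 members are always named; other pathway genes by smallest p, at most 6 a comparison, and ligands, receptors and binding proteins. The members and lists were chosen with earlier results of these data known. Tests were checked on counts simulated with 1 fixed spread for all genes. Of genes changed by log2 fold 1, 22% were found over all kept wells and 82.7% in 1 class contrast. At log2 fold 2, 100% were found in both, and 3.19 to 4.76% of calls were false. Those shares apply to that fixed spread only. In the class tests some members passed at log2 folds beyond 2 and some did not. Igf1r did not pass at 3.85 ± 1.56 (SE) in endothelial-like against pericyte-like cells. Igf2r did not pass at 6.41 ± 2.47 (SE) in oligodendrocyte-like against endothelial-like cells. How often changes would be found at the members' own spread was not tested.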

Additional observations from a re-analysis of the deposited data

Results flagged for a closer look

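Igfbp2 over all kept wells was higher in mimic than in control mice on 17 April, by 88.6 CPM, and lower on 19 April, at -131.6 CPM, with both mimic mice on one side of both control mice each time. The difference between the dates was not tested. Without the fibroblast-like wells the differences were 34.3 and -57.6 CPM, and mimic and control mice overlapped on both dates. Mice 1, 3 and 4 of the first date had no fibroblast-like wells, mouse 2 had 3, and the mice of the second date had 4, 2, 4 and 3.
In 38 groups of 4 to 8 mice, 7 had a mouse far from the others by Dixon's ratio. Its limit is set for about 1 of 20 independent groups of normal values. These groups share mice and hold skewed values, so the 7 cannot be weighed against that rate. Control mouse 7 had Igfbp7 at 804 CPM over all kept wells, against 238.3 CPM in the next control mouse, and it had 18 pericyte-like wells against 5 to 8 in the other control mice. Mimic mouse 4 had Igfbp2 at 747 CPM in 7 astrocyte-like wells. Control mouse 7 had Igf1r at 87.3 CPM in pericyte-like wells among control mice, and mimic mouse 2 at 250.1 CPM among all mice. Control mouse 1 had Igf1r at 173.8 CPM in 7 astrocyte-like wells, and mimic mouse 6 had Igfbp5 at 222.8 CPM in 12. Control mouse 3 had Igf2 at 2089.7 CPM in 5 pericyte-like wells.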

How the results depend on the processing

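No paired analysis was possible because the mouse numbers differ between treatments. Of 1382 recomputed values, 1247 changed neither their direction nor their side of the threshold. Genes past the threshold by DESeq2 numbered 3384 (astrocyte against endothelial), 3625 (astrocyte against pericyte), 2659 (endothelial against pericyte), 2636 (oligodendrocyte against astrocyte), 3309 (oligodendrocyte against endothelial) and 4032 (oligodendrocyte against pericyte), from 2098, 2028, 1270, 1724, 2176 and 2549. With sums of at least 10 wells they numbered 633, 424 and 1065 for astrocyte, endothelial and oligodendrocyte against pericyte. Members called were then 1 for endothelial against pericyte and 1 for oligodendrocyte against astrocyte. Leaving out 1 mouse gave 1 to 3 for endothelial against pericyte (1 without control mouse 7), and 1 to 2 for oligodendrocyte against astrocyte (1 without control mice 3, 5 or 7 or mimic mice 2 or 4, the call lost being that of Igfbp5). Mimic against control gave 84, 17, 2, 10 and 1 genes with no low-count filter and 15, 3, 25, 30 and 15 by DESeq2, over all kept wells and in oligodendrocyte, astrocyte, endothelial and pericyte classes, with no member among them.
By the title map the differences in mean CPM turned to -27.7 (Igf1r), 2.82 (Igf2r), 13.9 (Igfbp2) and -82.8 (Igfbp7) over all kept wells, -4.29 (Igf1r, oligodendrocyte), 27.02 (Igf1r, astrocyte), -7.49 (Igfbp7, endothelial), -29.3 (Igf1r, pericyte) and 102.3 (Igf2, pericyte). The log2 folds turned to 0.11 (Igf2r), -0.39 (Igfbp7), -0.48 (Igf1r) and -0.32 (Igf2) over all kept wells, -0.41 (Igf1r, oligodendrocyte), -0.26 (Igfbp5, astrocyte), 1.37 (Igf1r, astrocyte) and -3.35 (Igf1r, pericyte). Without the date as covariate, Igfbp2 and Igf2 turned to -0.26 and -0.14. Without fibroblast-like wells Igf2 turned to -0.48, without TMM Igf1r in astrocyte-like cells to 0.035, and without the filter Igf1r in endothelial-like cells to 0.028. Of class contrasts that did not pass, sums of at least 10 wells turned Igf1r (astrocyte against pericyte) to -2.89, and Igf2r and Igf2 (oligodendrocyte against astrocyte) to -1.28 and 2.06. Sample titles turned Igf2 (oligodendrocyte against astrocyte) to 0.33 and Igf1r (oligodendrocyte against pericyte) to 0.38, and DESeq2 turned Igfbp2 (oligodendrocyte against endothelial) to -1.42. The cause was not tested. Leaving out 1 mouse, differences in mean CPM ran -89.1 to 71.4 (Igf2, all), -68.3 to 43.8 (Igfbp2, all), -23 to -11.7 (Igf2r, all), -244.4 to 61.5 (Igfbp2, astrocyte), -149.3 to 73.8 (Igf1r, endothelial), -3.36 to 80.01 (Igf1r, pericyte), -492 to 120.9 (Igf2, pericyte) and 739.9 to 1297 (Igfbp7, pericyte). Log2 folds ran -0.71 to 0.62 (Igf2, all), -0.20 to 1.03 (Igfbp2, all), -0.97 to 0.44 (Igfbp2, astrocyte), -0.73 to 0.89 (Igf1r, astrocyte), -0.58 to 0.60 (Igf1r, endothelial), -1.25 to 7.06 (Igf1r, pericyte) and -1.21 to 0.58 (Igf2, pericyte), and for oligodendrocyte-like cells -1.53 to 2.65 (Igf2) and -2.28 to 1.23 (Igfbp7) against astrocyte-like and -1.29 to 0.89 (Igf1r) against pericyte-like cells. Igf2r over all kept wells without control mouse 3, at -23.0 CPM, and Igfbp7 in pericyte-like cells without mimic mouse 6, at 1297 CPM, reached an exact permutation p under 0.05. In each case the mouse left out was the one that made the groups overlap, so p took its smallest possible value, 0.0286. Thinning moved the share of wells with Igf1r to 11.6% in oligodendrocyte-like, 6.67% in precursor-like, 19.1% in astrocyte-like, 78.1% in endothelial-like and 0% in fibroblast-like wells, and of Igf2r to 10.8% in neuroblast-like wells. These were 6 of 26 shares thinned, and these 6 depend on depth. The share of smooth muscle-like wells with Igf2r stayed at 44.4%.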

Other observations

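Each mouse had 96 wells for 94 sorted cells. In the 16 unnamed wells with more than 6000 genes, 2 from each mouse, all had Igf1r and Igfbp7, 15 had Igf2, 12 Igf2r and 11 Igfbp2, and none had Igf1. Such wells thus held members that elsewhere fell in different classes. Over all 23 unnamed wells, which include wells with fewer genes, Igf1r reached 123.3 CPM and Igfbp2 1371 CPM. Of the 12 wells set aside, 6 had Igfbp7, at up to 5261 CPM.
The 93 wells left out for low counts or genes, 53 of control and 40 of mimic mice, had Igfbp7 in 5 and 8 wells, Igfbp5 in 5 and 4, Igf1r in 5 and 3, and Igf2 in 1 and 3.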
